A study of Mus musculus with 2 samples.

Results

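Stretches of the mouse genome that carried LUZP1 chromatin reads and no mock reads were collected and described. Chromosomes 1 to 19 of the mm9 assembly were divided into windows of 500 bp that start at multiples of 500, and every mapped read was extended to 200 bp from its 5′ end and assigned to the window that holds its midpoint. A window was chosen when it held 8 or more LUZP1 midpoints and 0 mock midpoints, outside the histone gene clusters of chromosomes 13 and 3. Of 4780323 windows, 727 were chosen, which is 0.0152%. The windows were thus selected on both libraries' counts, so their LUZP1 and mock values are given as a description and support nothing by themselves.

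The reads come from E14, a feeder-independent line of mouse embryonic stem (ES) cells of strain 129P2/OlaHsd, grown to passages 25 to 30. Chromatin (300 µg) was immunoprecipitated with a rabbit serum against LUZP1 (n = 1 library) or handled as a mock (n = 1 library), and the recovered DNA was sequenced. The mock is labelled as having no antibody at the sample, while the design text of the series names GST. The series is about the coactivator complexes ATAC and Mediator at non-coding RNA genes, and its GCN5 precipitation is not analysed here. There were 4214959 LUZP1 reads and 2734938 mock reads. With 1 library in each group no test between the conditions exists, no difference has a replicate check, and all intervals are exact 95% intervals (Clopper-Pearson for shares, conditional binomial for ratios) that cover counting error only. Where 2 reads are the ends of 1 fragment, the intervals are too narrow.

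LUZP1 is a leucine zipper protein that has been described as a partner of ATAC, a complex that acetylates histones and is recruited to promoters and enhancers of active genes. Promoters of many widely expressed genes lie in CpG-rich DNA, where such complexes and RNA polymerase II assemble. Small nuclear RNA (snRNA) genes are mostly read by RNA polymerase II from compact promoters of their own, while transfer RNA (tRNA) genes, 5S ribosomal RNA genes and the snRNA U6 are read by RNA polymerase III. A tRNA gene carries its promoter inside the transcribed sequence as an A box and a B box, which the factor TFIIIC binds.

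The sequences of 3 windows at protein-coding gene starts are shown, all among the 8 with the most LUZP1 midpoints there. Each of the 3 holds a searched motif. The stretches taken in the same way at Dbndd2 and Ehd3, also among the 8, hold none. The 3 sequences are printed in the direction of the gene (assembly NCBIM37, which is mm9). They are taken from the 300 bp about the median LUZP1 midpoint, less any annotated untranslated exon. For Prepl this is chr17:85489608-85489838 (minus strand), the 231 bp upstream of the start, which lie beside the opposite start of 1700106N22Rik. For Ctnna3 it is chr10:62892070-62892369 (plus strand), from -776 to -477 bp relative to the start, and for Rnf135 it is chr11:79997223-79997352 (plus strand), the 130 bp upstream. Capitals mark a YY1 motif in Prepl, a B box and a CCAAT box in Ctnna3 and 2 GC boxes in Rnf135. The B box of Ctnna3 belongs to a tRNA-like sequence on the strand opposite to the gene.
Prepl: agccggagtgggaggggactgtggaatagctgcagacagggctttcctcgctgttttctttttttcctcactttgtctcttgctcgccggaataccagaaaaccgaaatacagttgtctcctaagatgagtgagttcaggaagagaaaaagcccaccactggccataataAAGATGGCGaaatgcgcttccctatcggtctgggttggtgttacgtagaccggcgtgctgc
Ctnna3: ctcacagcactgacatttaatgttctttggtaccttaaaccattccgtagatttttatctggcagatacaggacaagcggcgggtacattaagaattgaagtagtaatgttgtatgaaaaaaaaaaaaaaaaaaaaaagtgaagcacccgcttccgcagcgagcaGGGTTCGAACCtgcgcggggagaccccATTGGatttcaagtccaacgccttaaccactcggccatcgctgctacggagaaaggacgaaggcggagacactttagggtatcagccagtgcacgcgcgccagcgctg
Rnf135: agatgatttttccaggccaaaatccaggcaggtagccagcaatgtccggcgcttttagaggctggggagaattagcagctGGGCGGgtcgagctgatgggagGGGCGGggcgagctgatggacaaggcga

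The other recurring kind of sequence was tRNA-like. It was defined by an A box followed by a B box at a distance of 38 to 110 bp, with outer ends of 7 bases that could pair at 6 or more positions. These are named by sequence alone, since annotated nuclear tRNA genes were not used here. Those of 5 chosen windows are printed 5′ to 3′ on their own strand with the A box and the B box, or the core of the wider B box, in capitals. They are chr19:12085577-12085658 (minus), chr1:172964074-172964146 (minus) and chr11:115274295-115274366 (plus), followed by chr5:125889842-125889912 (plus) and chr10:90644843-90644913 (minus), which a second search with a wider B box and a fully paired arm added. The first lies in a window with 14 LUZP1 midpoints, and the third is in the only window with a tRNA-like sequence that meets a peak listed by the authors.
tRNA-like on chromosome 19: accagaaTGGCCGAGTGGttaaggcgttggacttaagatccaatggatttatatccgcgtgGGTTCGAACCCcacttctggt
tRNA-like on chromosome 1: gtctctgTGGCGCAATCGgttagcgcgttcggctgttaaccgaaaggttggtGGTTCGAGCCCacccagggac
tRNA-like on chromosome 11: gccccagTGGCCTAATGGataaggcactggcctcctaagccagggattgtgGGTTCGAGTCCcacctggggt
tRNA-like on chromosome 5: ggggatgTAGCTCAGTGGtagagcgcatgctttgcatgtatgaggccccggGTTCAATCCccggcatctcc
tRNA-like on chromosome 10: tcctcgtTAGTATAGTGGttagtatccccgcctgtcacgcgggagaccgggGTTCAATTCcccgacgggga

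The first question was whether such windows were more numerous in LUZP1 than in the mock. At an equal number of reads they were fewer, by an amount that depended on how LUZP1 reads were drawn. LUZP1 reads were drawn down to the number of mock reads, and the same rule then gave 75 windows with LUZP1 midpoints and no mock midpoints (0.00157% of all windows). With the libraries exchanged, 156 windows had 8 or more mock midpoints and no drawn LUZP1 midpoint (0.00326%), so the LUZP1 windows numbered 0.481 times the mock windows (interval 0.360 to 0.637). Drawn singly in this way with other seeds, 9 further draws gave 53 to 64 LUZP1 and 148 to 165 mock windows, with ratios of 0.325 to 0.421. When both ends of a fragment were kept together in the draw, 103 LUZP1 and 166 mock windows qualified, a ratio of 0.620 (0.480 to 0.798), and over 10 seeds the ratio ran from 0.620 to 0.723. The draws share most of their reads and are not independent of each other. In these draws read numbers were made equal, and fragment numbers were not. The mock held 1909705 fragments, and the LUZP1 library before drawing held 3467764. The fragment number of the drawn LUZP1 reads was not determined, so the size of the imbalance is not known. Against the LUZP1 library at full depth, 118 windows qualified in the mock.

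**Figure D1:**
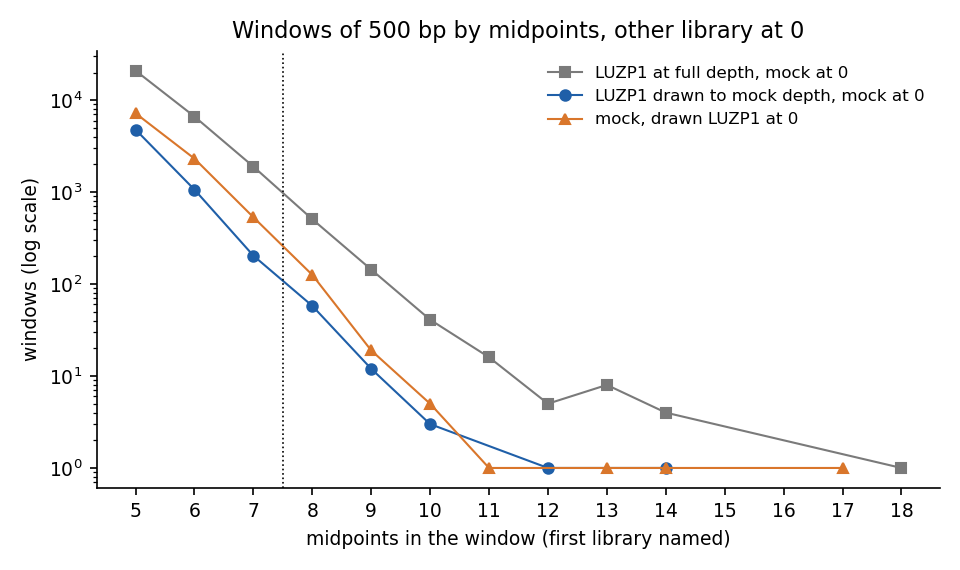
Number of 500 bp windows (log scale) by their number of midpoints in the library named first, with the other library at 0: LUZP1 at full depth (squares), LUZP1 drawn to mock depth (circles) and the mock (triangles). Counts of 0 are not drawn, and the dotted line marks the minimum of 8. The mock points lie above the drawn LUZP1 points from 5 to 10 midpoints, with 126 against 58 windows at 8.

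The balance between the libraries changed with base composition. Below 40% GC there were 6 drawn LUZP1 and 44 mock windows, a ratio of 0.136 (0.0475 to 0.321). The ratio was 0.488 (0.271 to 0.852) from 40 to 45% GC, 0.619 (0.364 to 1.03) from 45 to 50% and 0.476 (0.20 to 1.06) from 50 to 55%. At 55% GC or more there were 13 and 8 windows, a ratio of 1.62 whose interval (0.624 to 4.52) includes 1. By the pair rule of each library, 35.5% of LUZP1 reads and 60.3% of mock reads were joined as ends of 1 fragment. A pair meant reads on opposite strands at the fragment distance of the library. The range of distances allowed was wider for the mock than for LUZP1, so the 2 percentages do not rest on an equal criterion. The part of this range in their difference was not tested. All fragment counts and all results with pairs counted once rest on the same unequal ranges. With each pair counted once, LUZP1 fragments were drawn to the number of mock fragments. At this equal number of fragments 2 drawn LUZP1 and 9 mock windows were left. The part of pairing and of base composition in the difference was not tested.

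Most of the 727 windows stood just above the minimum. There were 508 with 8 LUZP1 midpoints, 144 with 9 and 75 with 10 or more, and the highest count was 18. Just outside the rule lay 1898 windows with 7 LUZP1 and 0 mock midpoints, and 253 with 8 or more LUZP1 midpoints and 1 mock midpoint. A count of 0 in the mock was common at this depth, as 67.6% of all windows had it, and it allows up to 3 midpoints. In all, 938 windows had 8 or more LUZP1 midpoints and at least 1 in the mock. The chosen windows together held 6184 LUZP1 midpoints, 0.151% of those in the scan.

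Counted as fragments the windows were lower still. The median window held 6 joined LUZP1 fragments, with a range of 4 to 13, and 45 of the 727 kept 8 or more. Midpoints per fragment came to 1.46, against 1.21 over every 2000th window of the scan. In 725 of the 727 windows, 5′ ends lay on both strands, as they did in 933 of the 938 windows with mock reads. The windows were scattered, with 726 separate loci. Of the 727 windows 279 (38.4%) also had no mock midpoint in either neighbouring window, which was less frequent than the 48.1% over every 2000th window.

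Their sequence was richer in GC and easier to map than the genome at large. The median GC content was 47.6% (quartiles 44.2 and 51.2), against 44.1% for the exchanged mock windows and 41.8% for all windows. At least 80% of the 36-base sequences occurred once in the genome in 98.1% of the windows. This held for 79.8% of every 2000th window of the scan and for 97.4% of the exchanged mock windows, so it was shared with the mock. Per 100000 windows of the genome there were 2.51 chosen windows below 40% GC and 64.5 at 55% or more. The 938 windows with mock reads rose over the same range from 6.56 to 72.2 per 100000.

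Gene starts came next. Of the 727 windows, 44 lay within 500 bp of the start of a protein-coding gene, a share of 6.05% (4.43 to 8.04). All windows of the same GC content had 2.97%, and all windows regardless of GC had 1.26%. The 938 windows with 8 or more LUZP1 midpoints and mock reads had 7.57% (5.96 to 9.45), with 2.87% for their GC content. The intervals of the windows with and without mock reads overlap.

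At an equal number of reads the share was higher in the drawn LUZP1 windows than in the exchanged mock windows, but with overlapping intervals. It was 7 of 75, or 9.33% (3.84 to 18.3), against 3.49% for the same GC content. In the exchanged mock windows it was 5 of 156, or 3.21% (1.05 to 7.32), against 1.64% for theirs. The other 9 draws put the LUZP1 share at 12.3 to 23.6% and the mock share at 1.84 to 3.77%, with the LUZP1 share above in 9 of 9. With fragment ends kept together it was 6.48 to 14.2% for LUZP1 and 1.88 to 4.29% for the mock over 10 seeds. With a minimum of 10 midpoints the order turned, with 0 of 5 LUZP1 and 1 of 11 mock windows (9.09%), as it did with pairs counted once, with 0 of 2 and 2 of 9 (22.2%). The difference was not tested.

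The share near coding starts rose with the number of midpoints. Among windows with 0 mock midpoints it was 3.79% (2.98 to 4.75) at 7 LUZP1 midpoints and 3.54% (2.11 to 5.54) at 8. It was 7.64% (3.87 to 13.3) at 9 and 20% (11.6 to 30.8), or 15 of 75, at 10 or more. Windows of the same GC content had 2.22% at 7, 2.88% at 8, 3.09% at 9 and 3.35% at 10 or more. The interval lay above the share for the same GC content at 7, at 9 and at 10 or more. For the 508 windows at the minimum of 8 it included that share, and it is too wide to exclude an excess like that at 7.

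**Figure D2:**
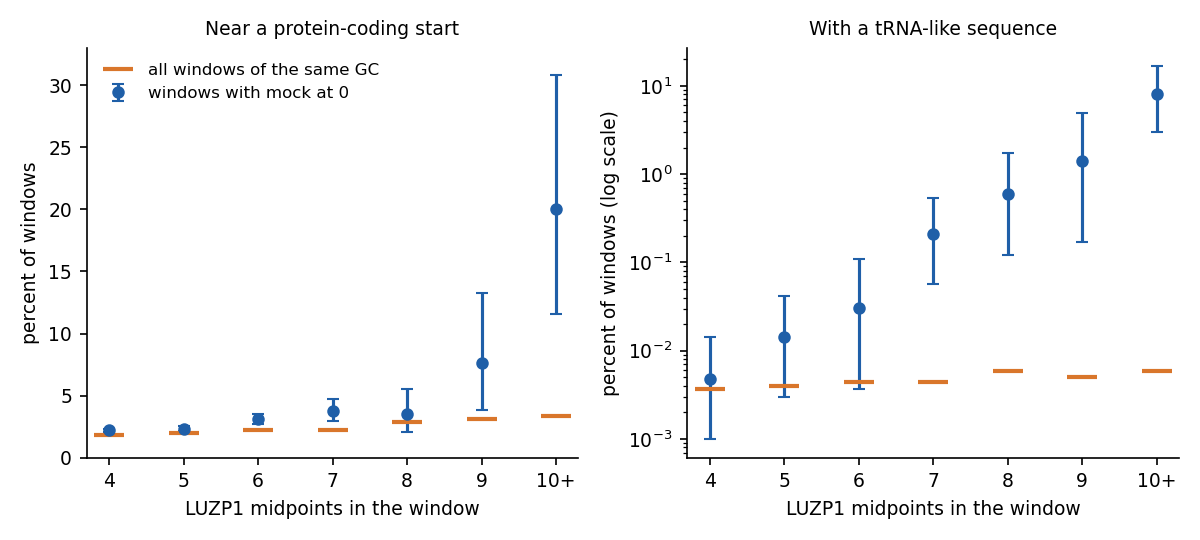
Percent of windows near a protein-coding start (left) and with a tRNA-like sequence (right, log scale), by LUZP1 midpoints, for windows with 0 mock midpoints (points with exact 95% intervals). Bars without points give all windows of the same GC content. At 10 or more midpoints 20% lie near a coding start and 8% hold a tRNA-like sequence, both above their same-GC values of 3.35% and 0.00583%.

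GC-rich windows held most of the coding starts. At 55% GC or more, 26 of 84 chosen windows (31%, 21.3 to 42.0) were near a start, against 17.1% of all windows of that GC content. Of the windows with 8 or more LUZP1 midpoints and mock reads, 22 of 94 (23.4%, 15.3 to 33.3) were, with an overlapping interval. Below 40% GC 0 of 47 chosen windows were near a start, and from 40 to 45% GC 2 of 166. The 44 windows had a median GC content of 55.3%, and 26 of them (59.1%, 43.2 to 73.7) were CpG-rich, meaning at least 50% GC and a CpG observed over expected ratio of 0.6 or more. Of all windows near a coding start 28.7% were CpG-rich, at a lower median GC content of 51.0%. The 2 shares were not matched for GC content.

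The remaining windows fell mostly between and inside genes. Each window took the first class that applied. No gene was annotated in 304 (41.8%, 38.2 to 45.5), 240 lay in introns of coding genes (33%), 99 touched an exon of a coding gene (13.6%), 24 lay in another gene (3.30%) and 16 lay within 500 bp of the start of another gene (2.20%). Over every 2000th window of the scan, 58.7% had no gene, 31.5% lay in a coding intron and 5.86% touched a coding exon. Exons were thus more frequent among the chosen windows (interval 11.2 to 16.3) and windows without a gene less frequent. Among the exchanged mock windows 11.5% (6.98 to 17.6) touched an exon and 39.1% (31.4 to 47.2) had no gene. The lower share without a gene was thus also present in the mock. The exon share was raised there too, but 6 of its 18 windows lay in the single gene Atxn7. The share without Atxn7 was not determined.

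**Figure D3:**
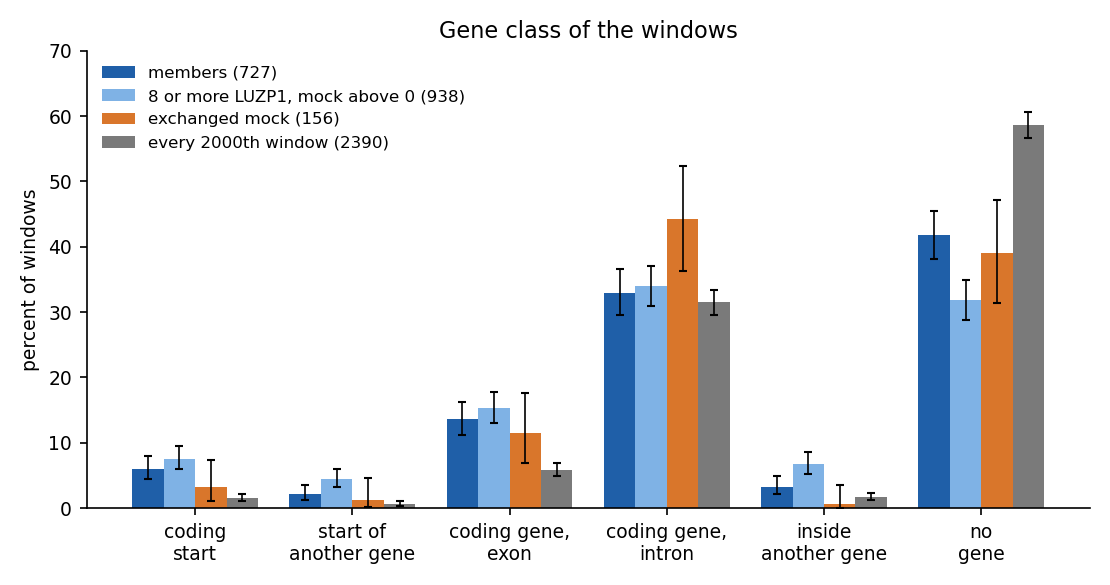
Percent of windows in each gene class with exact 95% intervals, for the 727 chosen windows, the 938 windows that also had mock reads, the 156 exchanged mock windows and every 2000th window of the scan. The chosen windows have 13.6% in exons and 6.05% at coding starts, and the first 3 groups all have fewer windows without a gene than the scan as a whole.

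The coding starts with the highest counts each had 13 LUZP1 midpoints and 0 mock midpoints. They were 1700064H15Rik, Dedd (chr1:173259001-173259500), which encodes a death effector domain protein, Prepl (chr17:85489501-85490000), a peptidase-like enzyme, Dbndd2 (chr2:164286001-164286500), a dysbindin domain protein, and Tmem101 (chr11:102017501-102018000), a membrane protein. Counted as fragments they kept 10, 8, 8, 8 and 7. Their surroundings, from 500 to 2500 bp outside the window on both sides, held 7, 2, 10, 1 and 4 mock midpoints in the same order, so mock reads did map nearby. Within the window the Dedd reads lay downstream of the start (12 of 13 midpoints), those of Prepl upstream (11 of 13), on the side of the opposite start of 1700106N22Rik, and those of Dbndd2 all upstream. At Tmem101 they fell on both sides, with 6 upstream and 7 downstream. At 1700064H15Rik all 13 lay downstream, at a median of 318 bp from the start. Its window also held a tRNA-like sequence by both searches, so its reads cannot be assigned to the coding start alone.

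At 11 midpoints stood Ehd3 (chr17:74154001-74154500), an endocytic recycling protein, Ctnna3 (chr10:62892001-62892500), an alpha-catenin of cell junctions, Rnf135 (chr11:79997001-79997500), a ubiquitin ligase, Mkks (chr2:136717501-136718000), a chaperonin-like protein, and Use1 (chr8:73891001-73891500), a SNARE of the endoplasmic reticulum. They kept 8, 7, 7, 7 and 7 fragments. Reads were split about the start at Ehd3 (7 upstream, 4 downstream) and Rnf135 (5 and 6). At Ctnna3 and Mkks all 11 lay upstream, with medians of -626 and -697 bp relative to the start, and at Use1 all 11 lay downstream, at a median of 383 bp. The Ctnna3 reads centred 20 bp from the B box of the tRNA-like sequence printed above within the window, and those of Mkks lay in an exon of 2210009G21Rik.

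At 10 midpoints were Zbtb40, a zinc finger protein, 3110082I17Rik, Nefh, the heavy neurofilament chain, 4833403I15Rik and Mastl, a mitotic kinase whose window also lies near the opposite start of the mitochondrial protease gene Yme1l1. They kept 8, 8, 7, 7 and 6 fragments. The 10 others named by rank had 9 midpoints and 5 to 8 fragments. These were the zinc finger gene Zfp689, Aipl1 (a chaperone of photoreceptors), Klhdc7b, Atp8b4 (a lipid flippase), Cdk5rap2 (a centrosome protein), Wnt7b (a signalling ligand), Alg12 (a mannosyltransferase whose window also lies near the opposite start of Creld2), Masp1 (a complement protease), Rpl32 (a ribosomal protein) and Lrrc14b. The set mixed CpG-rich promoters, as at Wnt7b with 75.8% GC, with tissue-restricted genes outside CpG-rich DNA, such as Aipl1 and Masp1. Of these 25 windows 15 were CpG-rich.

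Reads at the 44 coding starts did not favour the transcribed side. The median midpoint lay upstream of the start in 26 windows and at or downstream of it in 18, with 238 midpoints upstream and 175 downstream in all. The start lay inside the window in 27 of the 44, and 3 windows had a second start on the opposite strand within 500 bp. Counts ran from 8 to 13 with a median of 9, and 8 windows kept 8 or more fragments. Other genes in this group at 8 midpoints included Hoxd12 (a homeobox factor), Psmb5 (a proteasome subunit), Tpt1 (translationally controlled tumour protein) and Muted (a subunit of a complex for lysosome-related organelles). At Psmb5 only 70.8% of the 36-base sequences were unique.

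**Figure D4:**
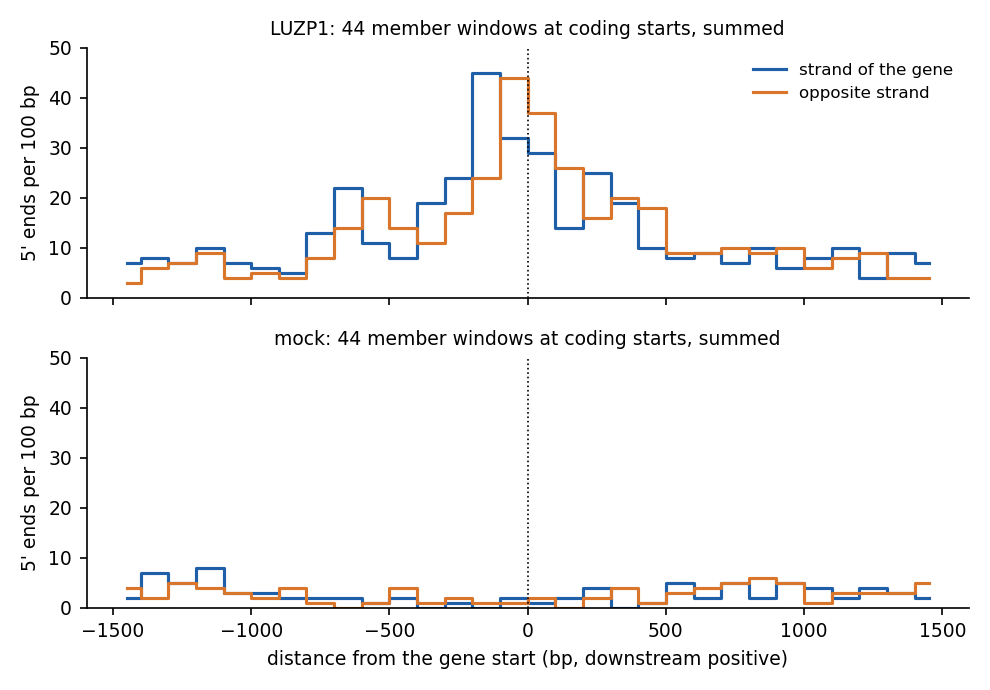
Number of 5′ ends per 100 bp, summed over the 44 chosen windows at coding starts, against distance from the start in the direction of the gene, for LUZP1 (top) and the mock (bottom), by strand. LUZP1 ends number 452 within 500 bp of the starts and mock ends 31, a contrast that the choice of windows fixes. From 1000 bp outwards there are 137 and 73.

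Beyond the chosen stretch the libraries were close. In the outermost part of this profile, beyond 1000 bp from the starts, there were 137 LUZP1 and 73 mock 5′ ends, a depth-scaled ratio of 1.22 (0.910 to 1.64). Around all 727 windows, from 500 to 2500 bp outside, there were 7252 LUZP1 and 4319 mock midpoints, a ratio of 1.09 (1.05 to 1.13). Around every 2000th window it was 1.02 (0.993 to 1.04), and around the exchanged mock windows it was 0.829 (0.762 to 0.901). Both libraries were denser around the chosen windows (2.49 LUZP1 and 1.49 mock midpoints per kb) than around every 2000th window (1.72 and 1.10).

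The LUZP1 reads that the draw left over gave a check on reads that had not chosen the windows. In the 75 drawn windows 109 left-over midpoints were found, 1.45 per window (1.19 to 1.75). Windows of the same GC content had 0.375, and the value would be 4.53 if the left-over reads were as dense as the drawn ones. Of the 75 windows 29 had none. When both ends of a fragment were kept together in the draw, the 103 windows held 0.893 left-over midpoints each (0.720 to 1.10), against 0.378 for the same GC content and 4.57 if as drawn. Left-over reads were therefore above the level for the base composition and well below that of the reads used for choosing. That level was matched for GC content only. At least 80% of 36-base sequences were unique in 97.3% of the 75 windows, against 79.8% of every 2000th window. The surroundings held 2.63 LUZP1 midpoints per kb, against 1.72. The part of unique sequence and of regional read density was not tested.

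Small RNA genes lay at a handful of the windows. An snRNA gene started within 500 bp of 4 windows. The U1 gene on chromosome 11 (window chr11:87236501-87237000, inside Tex14), for the snRNA that recognises the 5′ splice site, had 13 LUZP1 midpoints and 8 fragments. AC120136.3 on chromosome 1 (chr1:72301501-72302000) had 10 and 7, with 65.6% unique 36-base sequences. A U6 copy (chr9:62981001-62981500) had 9 and 8, and a U5 copy (chr9:65044001-65044500) had 8 and 7. The mock held 8, 10, 3 and 5 midpoints in the surroundings of these 4 windows, and 0 within them. The directly adjoining windows held 3, 7, 1 and 8 mock midpoints in the same order, against a median of 1 over all chosen windows. At AC120136.3 and U5 the mock count of 0 thus stood beside mock reads and may depend on where the window edges fall. These are 4 of the 727 windows, a share of 0.550% (0.150 to 1.40), against 0.0824% of all windows. It was 2 of the 75 drawn windows (2.67%, 0.325 to 9.30), 0 of the 156 exchanged mock windows (up to 2.34%) and 0 of the 938 windows with mock reads (up to 0.392%).

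Among other small RNAs, 2 windows lay at annotated 5S ribosomal RNA copies: n-R5s173 (chr5:107829501-107830000) with 9 midpoints and n-R5s40, beside the lincRNA Gm17487 (chr15:79522001-79522500), with 8. Snora74a, within the host gene Snhg4, and Snora7a, in the Rpl32 window, are small nucleolar RNAs, with 8 and 9 midpoints. A window with 8 midpoints (chr7:3220001-3220500) covered Mir293 and reached the starts of Mir294 and Mir295, microRNA genes of a cluster active in mouse ES cells. Its surroundings were uneven, with 36 LUZP1 and 13 mock midpoints. Starts of annotated ribosomal RNA genes lay at 0.275% (0.0333 to 0.990) of the chosen windows and 0.0192% of all windows, those of small nucleolar RNAs at 0.275% (0.0333 to 0.990) and 0.0873%, and those of microRNAs at 0.138% (0.00348 to 0.764) and 0.0819%. Longer non-coding transcripts started at Gm2529, Gm12869 and Gm10612 (9 midpoints each), at Gm13201, Gm11961 and Gm17018 (8 each), and beside the coding starts of Dbndd2 (Gm14302), Zfp689 (B130055M24Rik), Wnt7b (AU022754) and Tpt1 (Gm4285). The pseudogenes Gm12785 and Gm5067 had 9 each.

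A tRNA-like sequence lay in 11 of the 727 windows, a share of 1.51% (0.758 to 2.69), against 0.00567% of all windows of the same GC content. The search was made after a B box had been seen in these windows. The share grew with the count, from 0.211% at 7 midpoints (0 mock) and 0.591% at 8 to 1.39% at 9 and 8% (2.99 to 16.6) at 10 or more. The 11 windows held 13 such sequences of 71 to 106 bp, of which 12 were distinct. Within these windows 91.2 to 100% of 36-base sequences were unique. None of the 156 exchanged mock windows held one, which allows up to 2.34%, and among the 938 windows with mock reads 13 did (1.39%).

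The second search, with a wider B box, all 7 arm bases paired and at least 4 of 5 pairs in the T stem, found such sequences in 18 chosen windows, the 11 and 7 more. Of the 75 windows with 10 or more midpoints it marked 12 (16%, 8.55 to 26.3), and of the other 652 it marked 6 (0.920%, 0.338 to 1.99). A coding start or such a sequence was present in 25 of the 75. A further 47 of the 75 had no coding start, no other gene start, no listed peak and no tRNA-like sequence, 22 of them without any gene, 15 in coding introns and 9 in coding exons. Of the 18 windows 16 had no annotated gene.

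Taken by sequence and not by reads, windows with a tRNA-like sequence had more LUZP1 than mock. The scan held 125 of them by the first search, with 539 LUZP1 and 131 mock midpoints, a depth-scaled ratio of 2.67 (2.20 to 3.26) against 1.15 for windows of the same GC content. LUZP1 had 0 to 15 midpoints in a window with a median of 3, and the mock had 0 to 7 with a median of 0. LUZP1 was above the depth-scaled mock in 81 windows, below it in 24, and both were at 0 in 20. Relative to the mean of all windows LUZP1 was 5.03-fold and the mock 1.89-fold, so the mock was also raised there. Of the 125 windows 11 (8.80%) were chosen windows, 2 drawn and 0 exchanged.

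Without the chosen windows this ratio was 2.11 (1.73 to 2.58), although leaving them out by their counts lowers it by construction. With pairs counted once it was 2.49 (1.99 to 3.15), and away from coding starts it was 2.60 (2.09 to 3.24). The second search gave 2.98 (2.54 to 3.52) over 212 windows, and 3.56 (2.71 to 4.74) over the 104 that the first search had not found. By contrast, the 5348 windows with a B box but no tRNA-like sequence had 1.15 (1.10 to 1.20), with 1.12 for their GC content. Windows near coding starts had 1.16 (1.14 to 1.17), with 1.18 for theirs.

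**Figure D5:**
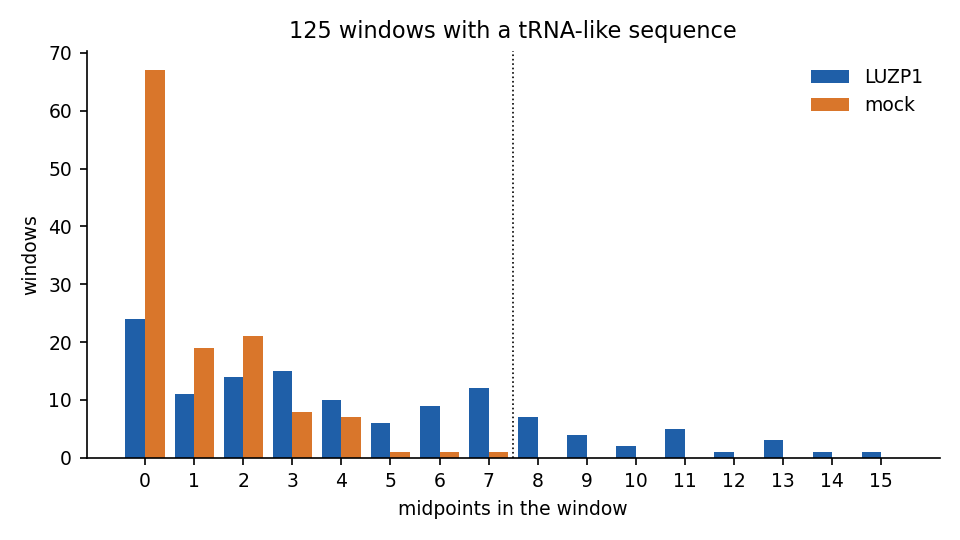
Number of windows by LUZP1 midpoints (blue) and by mock midpoints (orange), not scaled for depth, over the 125 windows of the scan with a tRNA-like sequence. The dotted line marks the minimum of 8. The mock is at 0 in 67 windows and never above 7, and LUZP1 is at 0 in 24 and reaches 15.

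Away from coding starts, 5 of the 8 windows with the most midpoints held a tRNA-like sequence by the second search, and 2 of them also by the first. The highest of all, on chromosome 3 (chr3:5860501-5861000), had 18 LUZP1 midpoints and 13 fragments, no gene and no tRNA-like sequence. Only 38.4% of its 36-base sequences were unique, and its surroundings held 1 LUZP1 and 2 mock midpoints. Next came chr5:125889501-125890000 (14 midpoints, 11 fragments), chr19:12085501-12086000 (14, 10) and chr10:90644501-90645000 (14, 8), each with a tRNA-like sequence, and chr2:161104001-161104500 (14, 8) without. With 13 midpoints followed chr11:68855001-68855500 and another window of chromosome 11 (11 fragments each), both with a tRNA-like sequence, and the U1 window.

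Genes of the complexes and classes of interest were mostly not among these windows. No start of 12 of the 14 gene lists lay within 500 bp of one: ATAC (15 genes found in the annotation), Mediator (31), SAGA (15), pluripotency (22), RNA polymerase II and general factors (26), Integrator and SNAPc (17), RNA polymerase III (20), housekeeping (14), silent in ES cells (15), long non-coding RNA (6), histone (76) and olfactory receptor (1106). Over all 21281 coding genes 47 (0.221%) had a start that close, so for lists of this size a count of 0 says little, and only the olfactory receptor list is long. Ribosomal protein genes had 1 of 77 (Rpl32) and zinc finger genes 2 of 419 (Zbtb40 and Zfp689). Windows inside genes of the lists, away from the start, lay in Cdk19 and Med27 (Mediator), Polr3a (the largest subunit of RNA polymerase III), Meg3 and Rps7, and in the zinc finger genes Zfp316, Zfp354c, Zfp385b, Zfp595 and Zfp953. Of all coding genes 1.77% held a chosen window, against 2 of 31 Mediator genes and 1.67% of the zinc finger genes.

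Of the 47 LUZP1 peaks that the authors listed, the chosen windows met 16 (34.0%), in 14 windows. The peaks were called on the same LUZP1 reads, so this overlap is a description. Of the others, 14 lay in windows with mock midpoints, 11 in windows below 8 LUZP1 midpoints, 4 in the histone clusters and 2 on chromosomes X and Y. Read the other way, 14 of 727 windows (1.93%) met a listed peak, and 68 of the 75 with 10 or more midpoints did not.

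Coding starts were met in 6 of the 14 windows: Dedd, Dbndd2 and Tmem101 (13 midpoints each), Mkks (11), Zfp689 (9) and Muted (8). Both listed peaks at U1 on chromosome 11 and both at AC120136.3 were met by 1 window each. Sh2b3 (9), Dock2 (8) and Tpd52l2 (8) were met in introns. The 3 without a gene were chr9:40039001-40039500 (10), chr11:115274001-115274500 (9, with the tRNA-like sequence printed above) and chr14:77523501-77524000 (8). Prepl, with 13 midpoints, and Ehd3, Rnf135 and Use1, with 11 each, were not on the list.

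Of 11 motifs, the B box, the E-box and NRF1 were above their frequency in windows of the same GC content by more than counting error, the CCAAT box was below it, and the others were within it. Exact letters were searched on both strands over the 500 bp, and no searched string contains another. The GC box (GGGCGG) was in 10.5% of the chosen windows, in 10% of windows of the same GC content and in 4.70% of all windows. In the same order the shares were 3.44%, 2.78% and 1.44% for the ETS core (CCGGAAG), 1.38%, 1.10% and 0.467% for YY1 (AAGATGGCG) and 2.48%, 2.81% and 4.28% for the octamer (ATTTGCAT). The E-box (CACGTG) was in 9.08% (7.09 to 11.4) against 6.69%, and 4.95% of all windows. In the exchanged mock windows the E-box was in 7.69% (4.04 to 13.1) against 5.60%. In the 938 windows with mock reads it was in 7.57% (5.96 to 9.45) against 6.27%. The CCAAT box (CCAAT) was in 47.9% (44.2 to 51.6) against 52.2%, with 56.8% of all windows, and the TATA box (TATAAA) in 21.7% (18.8 to 24.9) against 24.2%, with 40.1%. Rare motifs rested on few windows: CRE (TGACGTCA) on 6 (0.825% against 0.461%, and 0.282% of all windows), ZNF143 (ACTACAATT) on 4 (0.550% against 0.208% and 0.372%) and NRF1 on 3 (0.413%, 0.0852 to 1.20, against 0.0745% and 0.0319%). The B box was in 12 windows, 1.65% (0.856 to 2.87) against 0.197% and 0.114% of all windows, and 11 of these were the tRNA-like windows. The other was in an intron of Zcchc11. The exchanged mock windows had the B box in 1.28% (0.156 to 4.55) against 0.141%, and NRF1 in 0% (up to 2.34%). Their CCAAT share was 52.6% (44.4 to 60.6) against 55.3%. In the 938 windows with mock reads the B box was in 1.60% (0.898 to 2.62) against 0.178%. NRF1 was in 0.213% (0.0258 to 0.768) of these against 0.0682%, and the CCAAT box in 44.2% (41.0 to 47.5) against 53.4%. The raised B box and the lowered CCAAT box were thus not particular to the chosen windows. For the E-box and NRF1 the intervals of the chosen windows overlap those of the 938 and of the exchanged mock windows. Neither was therefore shown to be particular to the chosen windows.

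Of the 97 genes that held an exchanged mock window, 5 (5.15%) also held a chosen LUZP1 window, which is 1.16% of the 432 genes that did. These counts include non-coding genes. Of all coding genes 1.77% held a chosen window, and gene length was not taken into account. The highest counts of the exchanged windows were 61 and 33 mock midpoints in exons of Atxn7, which encodes a SAGA subunit, and 17 at Gm10222, all with 0 LUZP1 midpoints. At Gm10222 12.8% of 36-base sequences were unique. Atxn7 held 6 of the 156 windows. The 5 windows near coding starts were at Gm10222, Olfr351, Flcn, Mfsd2b and Tcl1, the last a gene of the pluripotency list with 9 mock and 0 LUZP1 midpoints. At an equal number of reads the highest LUZP1 count was 14, in the chromosome 3 window with 38.4% unique sequence, and the next was 12. Outside Atxn7 and Gm10222 the highest mock count was 11.

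Chromosome 11 had the most chosen windows for its size. It held 67, or 28.2 per 100000 windows, where its GC content alone would give 46.3 (1.45 times). Both libraries were densest there, at 1.06 LUZP1 and 0.654 mock midpoints per window. Chromosome 3 had the fewest for its size, 8.34 per 100000, with 26 where GC content alone would give 36.8 (0.706 times). Against GC content chromosome 12 was lower, with 22 where it would give 34.8 (0.632 times). Copy number was not tested.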

How the data were processed

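Per the labels and the design text of the series, chromatin of E14 cells was precipitated, sequenced on an Illumina Genome Analyzer II and aligned to mm9 with Eland, allowing 1 mismatch. The deposited read files give 1 mapped read of 36 bp per line, each with a count of 1 and no normalization by the authors. The authors' LUZP1 peak list gives positions only. Per the design text, its MACS clusters were filtered to 100 to 1000 bp and masked for repeats, and gene positions came from Ensembl 57. Not given in the sources used here are tool versions and whether the mock entered the peak calling.

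Reads were counted in windows by midpoint with Python 3.11.15, NumPy 2.4.6, pandas 2.3.3 and numba 0.67.0, intervals came from SciPy 1.17.1, and plots from matplotlib 3.10.9. Genes, exons and starts were taken from the GENCODE mouse annotation of Ensembl 65 on NCBIM37, an assembly with the coordinates of mm9. Equal read numbers were reached by drawing LUZP1 reads without replacement (seed 1, and 9 other seeds; also with both ends of a fragment kept together). Values for the same GC content are those of all windows in steps of 2% GC, weighted by the GC content of the windows compared. Counting was tested on simulated data, and no such test is reported for the drawing.

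The rule for named genes was the 25 windows at coding starts with the most LUZP1 midpoints, ties by more fragments and then by position, the 8 highest without a coding start, every window that meets a listed peak, every window at a non-coding RNA start, every window at a gene of the lists and the 3 highest exchanged windows. The pseudogenes, Hoxd12, Psmb5, Tpt1, the coding starts and Atxn7 total of the exchanged windows, and the tRNA-like searches were added after values were seen. The chosen windows, the gene lists and the motifs were selected with earlier results of these data known. Alternatives were the minimum, the window size, joining of pairs, the neighbouring windows, the draw and the definition of a start. The sequences of 2 of the windows are not reported here.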

Additional observations from a re-analysis of the deposited data

How the results depend on the processing

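With a minimum of 6 midpoints there were 9270 chosen, 1345 drawn LUZP1 and 3006 exchanged mock windows, and 3.47% of the chosen windows were near a coding start. With a minimum of 10 there were 75, 5 and 11 windows, the coding-start shares were 20%, 0% and 9.09%, and 9 listed peaks were met. Windows of 1000 bp gave 4988, 509 and 846. With pairs counted once there were 46, 2 and 9 windows, shares of 17.4%, 0% and 22.2%, and 5 listed peaks. Requiring 0 also in both neighbouring windows gave 279, 24 and 46 windows and 3 listed peaks. The drawn share was 20.8%, 23.6% and 22.0% in 3 of the other draws. Counting only starts inside the window gave 3.71% of the chosen windows, and counting the start of any transcript gave 9.22%.

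Alternatives for the tRNA-like sequences were chosen after seeing the data. Their share of chosen windows was 0.183% with a minimum of 6, 8% with 10 and 10.9% with pairs counted once. The LUZP1 to mock ratio over such windows was 2.11 without the chosen ones. The cause of these changes was not tested, apart from fewer windows passing a stricter rule. The other 80 values stayed within their limits, including those with fragment ends kept together in the draw, an alternative also chosen after seeing the data. The order of the drawn LUZP1 and exchanged mock shares near coding starts turned with a minimum of 10 and with pairs counted once. No paired analysis was possible because each group has 1 library. At this depth a mean window held 0.857 LUZP1 and 0.553 mock midpoints, and a mock count of 0 allows up to 3.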
